A study of Mus musculus with 96 samples.

Results

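The transcription factor p63 and 4 keratins were followed through 96 single horizontal basal cells (HBCs) that had arisen in 48 divisions. The 5 genes are Trp63, Krt5, Krt14, Krt15 and Krt23, chosen by their symbols among 55487 genes in the table of counts. HBCs are the reserve stem cells of the olfactory epithelium (OE), the sensory lining of the nose. They lie flat on the basement membrane, stay quiescent until the tissue is injured, and then divide to replace neurons and supporting cells. Trp63 encodes p63, which keeps HBCs in the quiescent state and has to decline before they can differentiate. Keratins build the intermediate filaments of epithelial cells. Each filament is a polymer of a type I with a type II keratin, and in basal cells the type I keratin Krt14 pairs with the type II keratin Krt5. Krt15 and Krt23 are further type I keratins, of which Krt15 is known from basal and stem cells of stratified epithelia.

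The cells came from wild-type mice aged 6 to 8 weeks. The OE was taken 2 days after an injection of methimazole, a drug that strips the epithelium and leaves HBCs behind, and HBCs were grown in culture. Dividing cells were followed on a coating that was switched from Tropoelastin to Fibronectin, and the daughters of 1 division, here called sisters, were picked by mouth pipette and numbered as a pair. All cells belong to this single condition, and neither the mouse nor the culture of a cell is labelled. The cells therefore form 1 sample, no test between groups was possible, and every correlation and share describes these 96 cells.

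RNA with a poly(A) tail was amplified from each cell by G&T-seq together with a fixed amount of the synthetic ERCC transcripts, which serve as spike-in. The cells had between 29454150 and 44849003 counts on genes (median 36152760), and between 11403 and 14632 genes had a count. Of 36 markers of other cell types (globose basal cells, neurons, sustentacular, microvillous, respiratory, gland, immune and stromal cells), 11 were at 0 in all cells and 2 had 10 or more counts in over 50% of cells, namely Hes6 and Sox9. All 7 HBC markers, Icam1, Itga6, Itgb4 and Egfr among them, reached 10 counts in over 50% of cells. The names of the deposited files split the cells into 12 sets of 8 cells, or 4 pairs each, and what these sets are is not stated.

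A single cell stood apart from the rest. Cell 4-2, daughter 2 of pair 4, had a median Spearman rho across genes of 0.597 with the other cells, the lowest of all 96 (median 0.688). It had 38588945 counts and 11654 genes with a count, and ERCC made up 4.50% of its counts, within a range of 1.06% to 5.75% over all cells. In it Krt5, Krt14, Itga6, Itgb4, Krt17, Krt6a and Krt19 were each at their lowest of all cells. Krt23 was at its highest CPM (counts scaled to the same total on genes in every cell). Cyp2a5, Cyp2f2 and Ugt2a1, enzymes of xenobiotic metabolism, were also at their highest there, at 6730, 1279 and 4509 CPM against medians of 0, 0.111 and 0.127 CPM. These 3 enzymes and the lowest-ranked markers were picked after their values were seen. Of the results that rest on this cell, the ICC of each major keratin, several relations and some list counts are also given without pair 4. Others, such as SDs and keratin ratios, are given with it only.

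Upstream sequence of 2 of the keratin genes is shown because p63 is known to bind regulatory DNA of basal keratin genes, and because Krt5 and Krt23 differed in their relations to the other genes. Among the 5 genes, 3 were matched in the RefSeq table of gene starts (GRCm38.p6), namely Krt5, Krt14 and Krt23. The windows cover the 250 bases before the start on the minus strand, at chr15:101712906-101713155 for Krt5 and chr11:99493121-99493370 for Krt23, written 5′ to 3′. Capitals mark a match to the consensus of a p53-family half-site, to which p53, p63 and p73 are known to bind. The consensus is its own reverse complement, so that a single scan covers both strands.
Krt5: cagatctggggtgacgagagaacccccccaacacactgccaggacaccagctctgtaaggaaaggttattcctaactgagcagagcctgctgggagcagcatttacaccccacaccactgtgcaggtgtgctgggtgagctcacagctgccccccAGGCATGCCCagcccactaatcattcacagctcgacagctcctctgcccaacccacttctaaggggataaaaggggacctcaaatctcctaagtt
Krt23: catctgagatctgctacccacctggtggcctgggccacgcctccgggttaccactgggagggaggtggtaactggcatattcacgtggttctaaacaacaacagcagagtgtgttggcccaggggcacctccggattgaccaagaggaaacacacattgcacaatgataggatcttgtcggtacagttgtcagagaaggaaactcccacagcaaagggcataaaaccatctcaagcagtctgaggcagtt
The Krt5 window held 1 match, AGGCATGCCC, starting at base -95 counted from the start, and the Krt23 window held 0. Of 32851 windows of the same 250 bases before the starts of all genes, 7.13% held a match. A match of letters is a description and not a bound site. The start listed for Krt14 in that table lies inside the gene, at 100206030, whereas the gene model used for counting runs to 100207548, so its window is not shown.

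On the scale of TPM (transcript abundance per length, which allows levels of genes to be compared), the 5 genes fell into 3 tiers. Krt14 (chr11:100203162-100207548, minus strand, GRCm38) had 16.2 TPM in its lowest cell, a median of 3672 TPM and 8705 TPM in its highest. Krt5 (chr15:101707070-101712898, minus strand) ran from 122.5 to 4433 TPM with a median of 2090 TPM. Both were therefore abundant in nearly every cell, and Krt14 was below 100 TPM only in cell 4-2. Trp63 (chr16:25683763-25892102, plus strand) had a median of 80.2 TPM and reached 305.4 TPM, and 1 cell, 46-2 with 37 counts, was below 1 TPM. Krt23 (chr11:99477974-99493137, minus strand) ran from 0.243 to 1283 TPM with a median of 56.7 TPM. Krt15 (chr11:100131758-100135928, minus strand) had a median of 0.799 TPM, and ran from 0 TPM in 28 cells to 1554 TPM in cell 15-1.

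Neighbours in this order did not all keep their places within a cell. Krt14 was above Krt5 in 81 of 96 cells, and Krt5 was above Trp63 in all 96. Trp63 was above Krt23 in only 54 of 96 cells, so that the order of these 2 genes was not fixed. Krt23 exceeded Krt14 in 5 cells and Krt5 in 2 cells. Krt15 exceeded Trp63 in 8 cells and Krt23 in 13 cells.

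**Figure D1:**
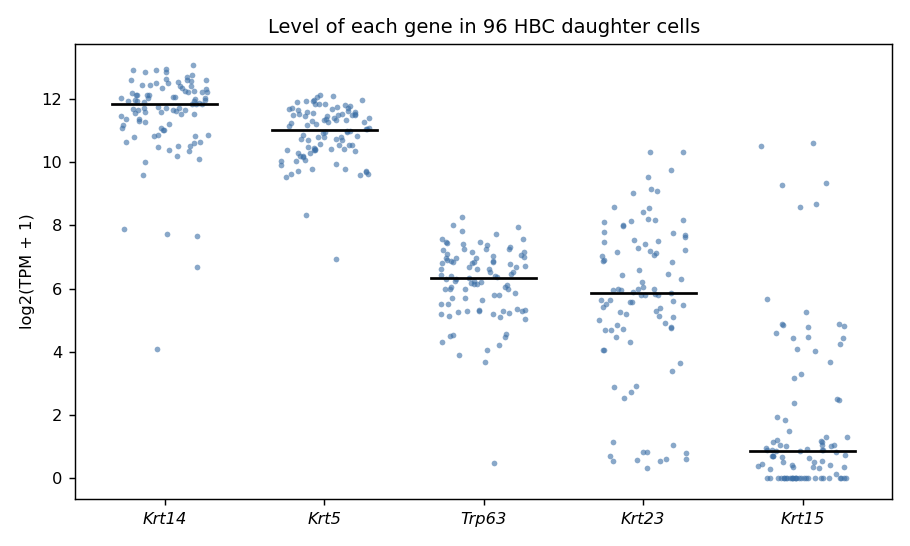
Level of each gene in each of 96 cells (points), as log2(TPM + 1), with the median over cells as a black bar. Krt14 and Krt5 lie highest, Krt14 with 5 cells well below its band, Trp63 has 1 cell near 0, and Krt23 and Krt15 spread over the whole axis.

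The genes also differed in how far cells varied. In CPM, which compares 1 gene between cells, the upper quartile was 2.14 times the lower for Krt5, 2.30 times for Krt14 and 2.72 times for Trp63, but 7.04 times for Krt23. The SD over cells of log2(CPM + 1) was 0.83 for Krt5, 1.36 for Krt14, 1.21 for Trp63, 2.47 for Krt23 and 2.58 for Krt15. A filter of 10 counts in 10% or more of the cells was passed by 14463 genes, the 5 among them, and their median SD was 1.58. Krt5, Trp63 and Krt14 thus varied less than the median gene and Krt23 and Krt15 more. The filtered genes were not matched on level, so how far this order follows abundance was not tested.

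In 2 pairs low Krt14 was shared by both sisters. The 5 lowest cells were 4-2 (691 counts), 29-1 (3413 counts), 19-2 (7327 counts), 29-2 (7369 counts) and 19-1 (8350 counts), and the next cell, 22-2, had 26412 counts. Both sisters of pairs 19 and 29 were thus among the lowest, while the sister of cell 4-2 had 137110 counts, close to the median of 135243. Krt5 was low in 29-1, with 15884 counts against a median of 106400, but cell 19-1 had 38861.

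Krt23 had a gap in its counts. In 12 cells it lay between 9 and 41 counts, and the next cell had 157. These low cells fell in 11 pairs. In 10 pairs a single sister was low while the other had between 658 and 24967 counts (median 1294.5), and in pair 44 both were low, with 9 and 18 counts. In the same 12 cells Krt14 stayed between 90418 and 340325 counts, so the low counts did not extend to the basal keratin. Among 9 ERCC transcripts whose median TPM lay within 2-fold of Krt23, between 0 and 37 cells had 41 or fewer counts, and what part loss of molecules had in the low cells was not tested.

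Krt15 was carried by few cells. It had a count in 68 of 96 cells, in 65 of which it reached 10 counts, but 6 cells with at least 10000 counts held 92.0% of all Krt15 counts. Both sisters of pair 15 belonged to these, with 50861 and 50335 counts, and this pair alone held 51.9%. In pair 25 one sister had 13790 counts and the other 0, and in pair 41 they had 25929 and 34. By the sampling of reads alone, a count of 0 allows up to 3 counts. Loss of molecules before amplification is not covered by that bound, so cells at 0 cannot be called free of Krt15. Over 48 pairs, both sisters had a count in 29, one in 10 and neither in 9.

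The spread between sisters was measured on spike-in normalized counts plus 1, as the ratio of the higher to the lower sister, and a ratio of 1.5 was taken as the cutoff for a difference. Krt5 reached it in 17 of 48 pairs (35.4%, exact Clopper-Pearson 95% interval 22.2% to 50.5%), with a median ratio of 1.30. Krt14 reached it in 17 pairs as well, with a median ratio of 1.34. The intervals cover the error of counting 48 pairs only, and not that of the reads or of mice and cultures. The ratio for Krt23 reached 1.5 in 40 pairs (83.3%, 69.8% to 92.5%), with a median ratio of 2.54. For Krt15, 29 pairs reached it (60.4%, 45.3% to 74.2%), and the median ratio was 2.82. In 9 pairs neither sister had a Krt15 count, so their ratio was fixed at 1. With scaling by library total, 23 pairs reached the cutoff for Krt15. Trp63, with 35 pairs and a median ratio of 1.94, lay between the major keratins and Krt23.

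Most genes differ between sisters on this measure. A ratio of 1.5 in at least 24 of the 48 pairs was met by 3 of the 5 genes (Trp63, Krt15 and Krt23) and by 79.5% of all genes that passed the filter, whose median was 33 pairs and a ratio of 2.39. Only 8.36% of genes had fewer such pairs than Krt5 and Krt14, and these genes were not matched on level. The 4 ERCC transcripts within 2-fold of the TPM of Krt5, which were also those of Krt14, reached the cutoff in 0 to 1 pairs. The 8 within 2-fold of Trp63 did so in 10 to 37 pairs (median 31.5), and the 9 within 2-fold of Krt23 in 10 to 40 pairs (median 34). The 2 within 2-fold of Krt15 did so in 36 and 42 pairs, more than the 29 of Krt15, which had no count in 9 pairs. The counts of pairs for Trp63 and Krt23 thus lay within the range of spike-in transcripts of like TPM, which carry no difference between cells, whereas those of Krt5 and Krt14 lay above theirs. The size factors were set from ERCC transcripts counted in all cells, which brings such transcripts towards equal sisters. Ratios of genes also hold any sister difference in RNA content. The ERCC range is therefore not a like floor for Krt5 and Krt14. Many ERCC transcripts are shorter than the 5 genes, and so have fewer counts at the same TPM. This holds most for Trp63, whose ratio of count to TPM was a median of 2.52 times that of Krt14. The ERCC range is thus not a like floor for Trp63, Krt15 and Krt23 either. What part of their sister differences is technical was not tested.

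The largest ratios were set by few pairs. Trp63 differed 422.65-fold in pair 46, where the sisters had 19637 and 37 counts, and by at most 7.80-fold in any other pair. In pair 46 Krt14 stayed level, at 184196 and 150188 counts, and Krt5 was at 122405 and 49575. Krt14 differed 288.1-fold and Krt5 23.8-fold in pair 4, and neither reached 5-fold elsewhere. Krt23 differed 10-fold or more in 12 pairs, up to 942.1-fold in pair 8, and Krt15 in 21 pairs. Counted by pair, 1 pair had no gene at the cutoff and 7 pairs had all 5, with 3 genes the most frequent outcome (14 pairs).

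**Figure D2:**
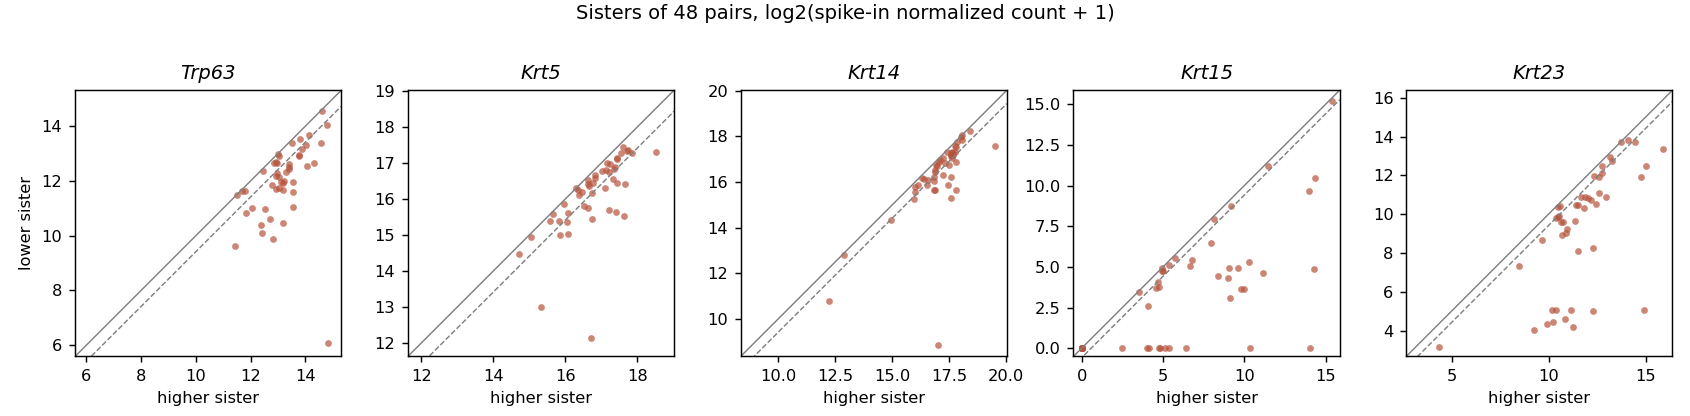
Higher against lower sister of each of 48 pairs, as log2(spike-in normalized count + 1), 1 panel per gene. The solid line marks equal sisters and the dashed line a ratio of 1.5. Krt5 and Krt14 have 17 of 48 pairs at or below the dashed line, pair 4 farthest, Trp63 has pair 46 far below it, and Krt23 and Krt15 have a lower cloud of pairs with 1 sister nearly empty.

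The intraclass correlation (ICC) over pairs gives the share of the spread between cells that sisters have in common, on log2(CPM + 1). It was 0.554 for Krt14, 0.473 for Krt15, 0.441 for Krt5, 0.378 for Krt23 and 0.00940 for Trp63. Only Krt14 reached an ICC of 0.5, as did 4.4% of the genes past the filter, and it was 0.449 after centring within the sets, 0.466 without set 8 and 0.472 without set 5. Their median ICC was 0.111, and 80% of them lay between -0.101 and 0.389. Single pairs carried weight here. Without pair 4 the ICC was 0.793 for Krt14 and 0.559 for Krt5, without pair 46 that of Trp63 was 0.235, and without pair 15 that of Krt15 was 0.297.

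Among the 10 relations between the 5 genes, the closest was that of Krt5 with Krt14, the partners of the basal cell filament. Over 96 cells their Spearman rho was 0.64 (Pearson r = 0.72), and it was 0.61 (r = 0.55) without the 2 cells farthest from the median of Krt5. It was 0.66 between the means of the 48 pairs and 0.57 between sisters, where the difference of 1 gene is set against that of the other. The sister with more Krt5 had more Krt14 in 32 of 48 pairs (66.7%, 51.6% to 79.6%). Without pair 4 the rho was 0.63 over cells and 0.54 between sisters, and after centring within the 12 sets it was 0.56. The relation was thus present among families and between sisters alike.

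The relations of p63 with both major keratins were weaker. The rho of Trp63 was 0.31 with Krt5 and 0.32 with Krt14 over cells, and 0.28 and 0.33 between sisters. Without pair 4 all 4 values were below 0.3, at 0.29 with each keratin over cells and at 0.23 and 0.29 between sisters. A rho of 0.3 or more with Trp63 over cells was found for 0.339% of 14462 genes. With Krt5 it was found for 1.34%, and with Krt14 for 1.27%. Between sisters the share was 2.03% for Trp63, 2.91% for Krt5, 2.64% for Krt14, 2.03% for Krt15 and 1.84% for Krt23. The direction of the sister difference matched in 26 of 48 pairs for either keratin (54.2%, 39.2% to 68.6%). Within the sets the rho was 0.25 with Krt5 and 0.18 with Krt14. In pair 46 the 2 genes parted, as 46-2 had the lowest Trp63 of all cells beside Krt14 above its median. This is 1 cell picked as an extreme. Without pair 46 the rho of Trp63 over cells was 0.29 with Krt5 and 0.33 with Krt14.

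**Figure D3:**
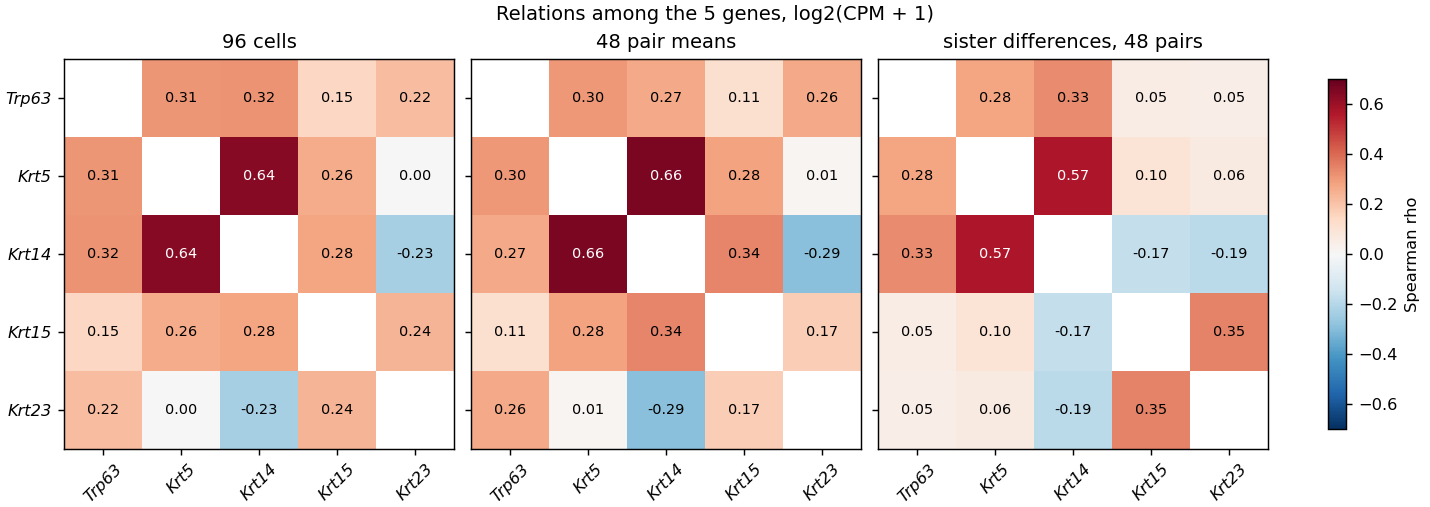
Spearman rho between each 2 of the 5 genes on log2(CPM + 1), over 96 cells (left), over the means of 48 pairs (middle) and over sister differences of 48 pairs taken in both orders (right). Red is positive and blue negative. Krt5 with Krt14 is the darkest square in all 3 panels, and Krt14 with Krt15 is positive for cells and pair means but negative between sisters.

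The minor keratins followed other lines. The rho of Krt23 with Krt5 was 0.00 over cells and 0.06 between sisters. With Krt14 it was negative, at -0.23 over cells, -0.29 between pair means and -0.19 between sisters. Without pair 4 it was -0.21 over cells and -0.15 between sisters. Within the sets the rho of Krt14 with Krt23 was -0.37. Their sister differences matched in direction in 23 of 48 pairs. The cells with most Krt23 by TPM, 22-2 (1283 TPM) and 4-2 (1276 TPM), were among the 6 lowest for Krt14. Trp63 had a rho of 0.22 with Krt23 over cells and 0.05 between sisters.

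Krt15 was related to Krt14 in one way among families and in another between sisters. The rho was 0.28 over cells and 0.34 between pair means, but -0.17 between sisters, and the direction matched in 14 of the 39 pairs with a Krt15 count in at least 1 sister (35.9%, 21.2% to 52.8%). On spike-in normalized values the rho between sisters was 0.01, so its sign depended on the scaling. Krt15 and Krt23 differed in the same direction in 28 of 39 pairs (71.8%, 55.1% to 85.0%), with a rho of 0.35 between sisters, 0.24 over cells and 0.17 between pair means. In pair 8 both were near empty in the same cell, with 1034 against 0 counts of Krt15 and 24967 against 26 of Krt23, and in pair 25 likewise with 13790 against 0 and 968 against 23. Krt15 counts were low in most cells, and this relation rests on sparse values. The rho of Krt15 with the total count per cell was -0.40, and that of Krt23 with the total was -0.25 and with the ERCC share 0.29. Given the total count, the partial rho of Krt15 with Krt23 was 0.16 over cells and 0.34 between sisters.

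Over all 10 relations the median rho was 0.25 over cells, 0.27 between pair means and 0.08 between sisters, and 3 of 10 reached 0.3 on each measure, Krt5 with Krt14 alone on all 3. Without pair 4 the number over cells was 1, namely Krt5 with Krt14, and between sisters it was 2. Leaving out each set in turn gave between 1 and 5 over cells, so this count rests on values close to 0.3. Among all filtered genes, the share at 0.3 or more with any one of these genes was 0.339% to 1.56% over cells. Between sisters this share was 1.84% to 2.91%, and between pair means it was not computed. The counts on the 3 measures are therefore not directly comparable.

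**Figure D4:**
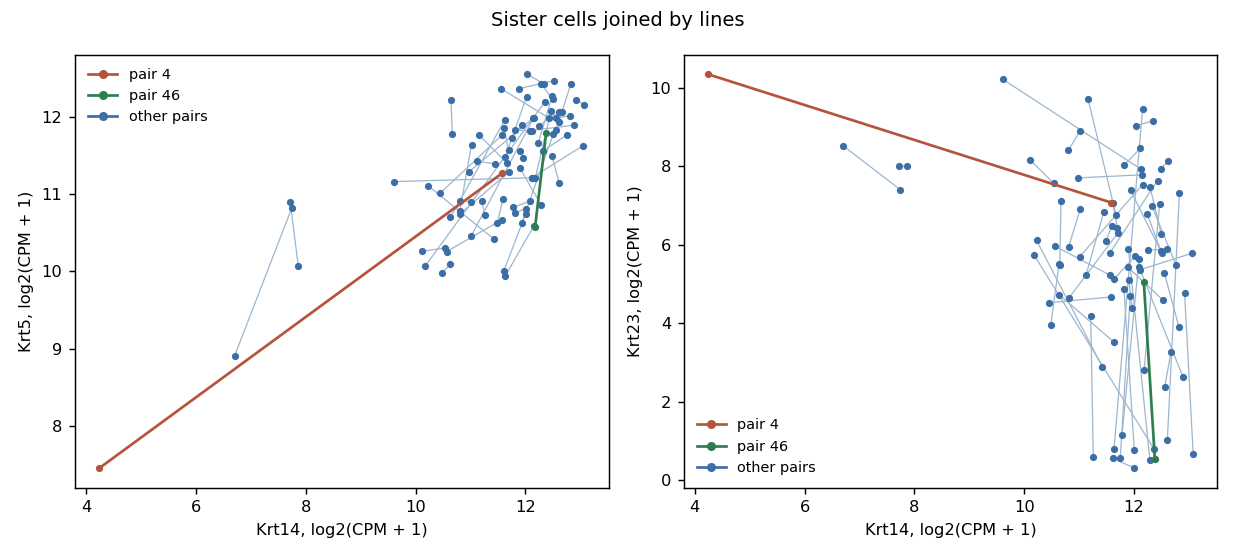
Krt5 (left) and Krt23 (right) against Krt14 in 96 cells, as log2(CPM + 1), with lines joining sisters. Pair 4 (red) spans the widest distance in Krt14, with its low cell at the lowest Krt5 and the highest Krt23, and pair 46 (green) lies at ordinary Krt14 and Krt5 with 1 sister near the floor of Krt23.

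Summed over 27 type I and 25 type II keratin genes in TPM, type I exceeded type II in 89 of 96 cells, with a median ratio of 1.70 and a range of 0.626 to 3.93. The sums of the 2 types had a rho of 0.64 over cells, and 0.55 when Krt14 and Krt5 were left out of them. Krt14 made up a median of 28.5% of type I and Krt5 28.9% of type II. Other keratins held as much or more, with Krt17 at 34.6% of type I and Krt6a at 43.7% of type II, both of which are induced in wounded epithelium. Krt23 was 0.481% of type I at the median, but 31.7% in cell 4-2, where Krt14 fell to 0.402%. Krt15 was 0.00562% at the median and at most 9.10%, in cell 15-2. The ratio of Krt14 to Krt5 had a median of 1.60 and was shared by sisters, with an ICC of 0.616 for its log2.

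Genes whose levels were most like those of the 5 genes were ranked by rho over cells among all genes that passed the filter. For Trp63 these included Pkp1 (0.49), a desmosomal plakophilin, Slc2a1 (0.47), the glucose transporter GLUT1, Gpi1 (0.38), a glycolytic enzyme, and Zyx (0.37), a protein of focal adhesions. Between sisters the rho of these genes with Trp63 ran from 0.21 for Zyx to 0.40 for Pkp1. Pkp1 was closer to Trp63 than either major keratin was, but it is the top of a ranking over all filtered genes.

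For Krt14 they were Krt17 (0.64), Gpi1 (0.56), Krt19 (0.56), Col17a1 (0.55), the transmembrane collagen of hemidesmosomes, and Tpi1 (0.52), a further glycolytic enzyme. For Krt5 they were the predicted gene Gm5414 (0.49), Krt72 (0.48), Ncs1 (0.47), Gpi1 (0.46) and Itgb4 (0.44), the beta subunit of the hemidesmosome integrin. Gpi1 was thus on the list for all 3 genes. Gm5414 and Krt72 lie 78.9 and 63.3 kb from Krt5 on chromosome 15, and Krt17 lies 48.7 kb from Krt14 on chromosome 11.

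Some of these keratins share sequence. Of the 75-base windows of the Krt5 transcript, 5.18% occur also in transcripts of Gm5414, Gm5478, Krt6a or Krt6b, and 5.91% of those of Krt14 occur in Krt16. The relations of Krt5 with Gm5414, Krt6a and Krt6b and of Krt14 with Krt16 are therefore uncertain, since reads in such windows could be split between genes. The reads were sequenced in pairs and longer than 75 bases, so a shared window need not leave a read ambiguous. The share of reads affected was not measured. Trp63, Krt15 and Krt23 had 0% of such windows. Krt72 had a median of only 2.5 counts.

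Krt23 had another set of neighbours. They were Tmem59 (0.60), Ephx1 (0.56), an epoxide hydrolase, Nqo1 (0.56), a quinone reductase, Itm2b (0.54) and Pdcd4 (0.53), an inhibitor of translation. Except for Tmem59, at 0.33, none of these reached a rho of 0.3 between sisters. The genes least like Krt23 were Gm3226 (-0.56), Npm1 (-0.50), the nucleolar protein nucleophosmin, and Tmsb10 (-0.50), an actin-binding thymosin. Relations at or below -0.3 over cells were found for 2.63% of genes with Krt23, 0.346% with Trp63, 0.996% with Krt5, 1.18% with Krt14 and 0.228% with Krt15.

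For Krt15 the closest genes were C3 (0.44), the central complement component, Krt13 (0.43), Fgfr3 (0.42), Gm16089 (0.42) and H60c (0.40), of which Fgfr3 had a count in 28 cells and Krt13 in 40. Relations of genes this sparse carry little weight, and C3 and H60c had the opposite sign between sisters (-0.23 and -0.15). The least like were Spp1 (-0.44), Ap1s1 (-0.36) and Ugt2a1 (-0.35). For the other genes they included Trappc6b (-0.43), Mrpl34 (-0.40) and Cox4i1 (-0.40) for Trp63, Capza2 (-0.49) and Zc3h15 (-0.44) for Krt5, and Zbtb38 (-0.51), Emc7 (-0.46) and mt-Nd5 (-0.45) for Krt14. On spike-in normalized values Cox4i1 turned positive (0.02), so its negative relation is relative to all RNA of the cell. Others were weaker there, at -0.05 for Capza2, -0.02 for Zc3h15, -0.02 for mt-Nd5, -0.11 for Emc7 and -0.19 for Mrpl34. Ap1s1 (-0.20), Zbtb38 (-0.25) and Trappc6b (-0.31) were weaker too, while Spp1 (-0.42) and Ugt2a1 (-0.36) changed little. Of the 3 least like genes, 1 stayed among them for Trp63 and 0 for Krt5 and Krt14.

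Known p63 target genes were described as a list of 22, all of which passed the filter. Fras1, Satb1, Tfap2c and Zfp750 had a median of 0 TPM. The list was not split by whether p63 raises or lowers a gene. With Trp63 itself, 2 of 22 had a rho of 0.3 or more over cells, Ripk4 (0.30), a kinase of epidermal differentiation, and Igfbp3 (0.30), a binding protein of insulin-like growth factors. The median was 0.09, against 0.00 over all genes. Without pair 4 the count was 1 of 22. With Krt5 the count was 5 of 22 (median 0.19) and with Krt14 it was 7 of 22 (median 0.20), led by Col17a1 (0.55) and Dst (0.52). For Krt15 it was 2 of 22, and for Krt23 none. The shares over all genes were 0.339% for Trp63, 1.34% for Krt5, 1.27% for Krt14, 0.449% for Krt15 and 1.56% for Krt23. On spike-in normalized values the counts were 5, 12, 13, 2 and 0 of 22 in the order Trp63, Krt5, Krt14, Krt15, Krt23. Spike-in scaling adds the RNA content of a cell to every gene. The shares over all genes given here are on CPM and were not computed for that scaling.

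Of 9 genes of hemidesmosomes and the basement membrane, which anchor basal cells, 4 reached a rho of 0.3 with Krt5 and 4 with Krt14, 1 with Krt15 and none with Trp63 or Krt23. Without pair 4, 1 reached it with Krt23. Over all filtered genes the share was 1.34% with Krt5, 1.27% with Krt14, 0.449% with Krt15, 0.339% with Trp63 and 1.56% with Krt23. Itgb4 (0.44), Col17a1 (0.44) and Lamb3 (0.42) led for Krt5. This list shares members with the list of p63 targets, such as Itga6, Itgb4, Col17a1 and Dst. Of 4 wound keratins, all 4 reached 0.3 with Krt14 (median 0.50) and 3 with Krt5 (median 0.40). Between sisters Krt6a had a rho of 0.64 with Krt5 and 0.46 with Krt14. With Trp63 none of the 4 reached 0.3 (median 0.24), but 3 did on spike-in normalized values (median 0.34), and with Krt23 the median was -0.22.

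Of 4 keratins of simple epithelia, Krt19 reached 0.3 with Krt5 (0.40), Krt14 (0.56) and Krt15 (0.39), while Krt18 had a rho of -0.33 with Krt15. Of 14 genes of suprabasal differentiation, 12 passed the filter. Among them Tgm1, the transglutaminase of the cornified envelope, reached 0.31 with Krt14, Krt13 reached 0.43 with Krt15, and Sbsn had -0.30 with Krt23. Over all filtered genes, 1.34% reached 0.3 with Krt5, 1.27% with Krt14 and 0.449% with Krt15. A rho of -0.3 or less was found for 0.228% with Krt15 and 2.63% with Krt23.

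None of 10 cycling genes reached a rho of 0.3 in either direction with any of the 5 genes. Few of all filtered genes did, with 0.339% to 1.56% at 0.3 or more and 0.228% to 2.63% at -0.3 or less. The absence in a list of 10 is thus close to the share over all genes. The medians of the cycling genes were -0.24 for Krt23, -0.14 for Krt15, -0.10 for Krt5, -0.09 for Krt14 and -0.08 for Trp63. On spike-in normalized values the last 3 turned positive (0.10, 0.09 and 0.08). The 2 genes of histone H3.3 had medians between -0.24, for Krt5, and -0.02, for Trp63, and H3f3b had -0.35 with Krt5, which turned to 0.04 on spike-in normalized values. In the p53 family, Trp53 had a rho of -0.39 with Krt23 and 0.03 with Trp63, and Trp73 was below the filter with a count in 5 cells.

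**Figure D5:**
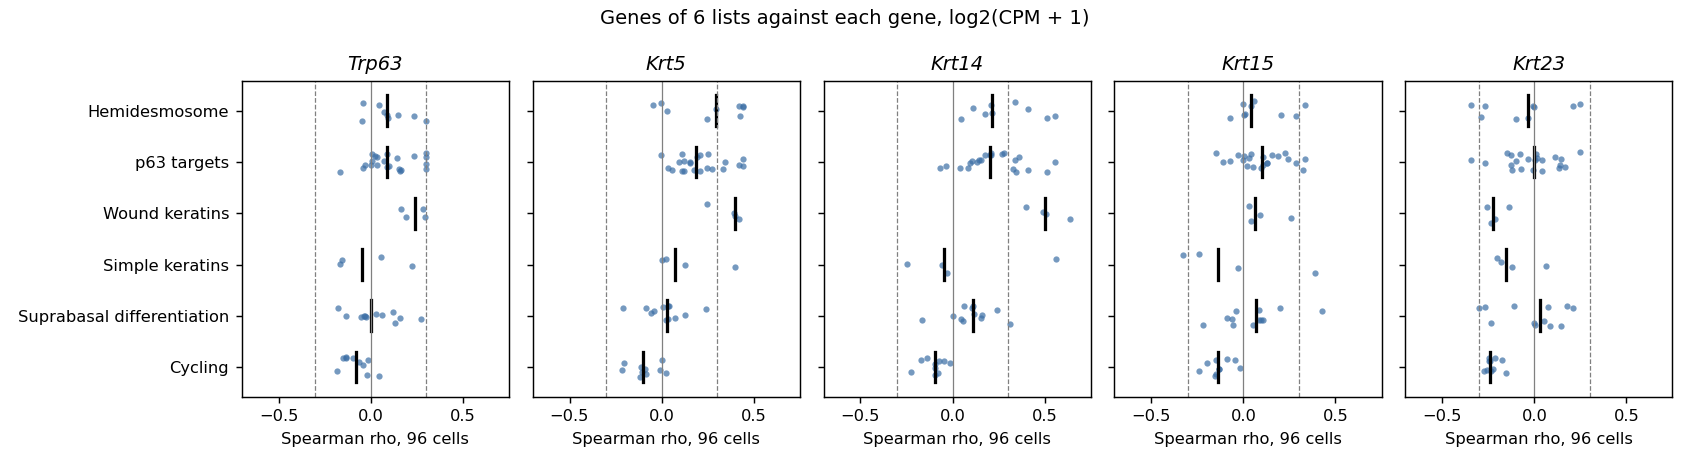
Spearman rho over 96 cells of each gene of 6 lists (points) with each of the 5 genes, on log2(CPM + 1), with the list median as a black bar and dashed lines at -0.3 and 0.3. Wound keratins and part of the hemidesmosome genes lie right of 0.3 for Krt5 and Krt14. Cycling genes stay within the dashed lines for all 5 genes, as most filtered genes did.

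Trp63 has several transcripts, which counts per gene do not tell apart. The annotation at hand (GENCODE M21, GRCm38) lists 8, of 1729 to 5366 bases. It is another release than the Ensembl release 100 with which the counts were made, so the transcripts quantified may differ from these. Of these, 4 begin at 25683763 or 25683765 and 4 at 25801916 on chromosome 16, the starts known to give p63 proteins with and without the transactivating domain. The ratio of count to TPM rises with the length of the transcripts that were quantified, and it was set relative to that of Krt14, with 1698 bases, in the same cell. It had a median of 1.29 for Krt5, with 2197 bases, 1.00 for Krt15, with 1700 bases, and 0.922 for Krt23, with 1565 bases, and lay within 5% of that in at least 98.8% of cells with 100 or more counts. For Trp63 it ran from 1.04 to 3.01 (median 2.52) over 95 cells, and 16 of these were below 2. Its ICC over 47 pairs was 0.288. The mix of Trp63 transcripts as quantified thus varied between cells, and these values do not say which start was used.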

How the data were processed

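The authors trimmed reads with Trimmomatic 0.39, aligned them with STAR 2.7.11a to GRCm38 with ERCC sequences and quantified genes with StringTie 2.2.1, per the paper and the submitters' processing notes. The authors deposited a table of counts per gene and cell, not normalized, and TPM per gene for each cell. No read carries a molecular identifier.

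Levels between genes were taken from deposited TPM. Sister ratios used counts divided by size factors from 22 of 92 ERCC transcripts counted in all cells (median of ratios, 0.387 to 1.93), plus a pseudocount of 1. Relations and ICC used log2(CPM + 1), to keep the RNA content of a cell out of them, and Spearman rho unless stated. Sister differences entered in both orders. The background was the 14463 genes that reached 10 counts in 10% or more of the cells. Python 3.11.15, numpy 2.4.6, scipy 1.17.1, pandas 2.3.3 and matplotlib 3.10.9 were used, and the ICC and rho were tested on simulated data.

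The labels name no mouse or culture, so no p-values were computed. The genes and lists were chosen with earlier results of these data known. Genes named were the 5 genes, the 5 most and 3 least like each, and per list the 3 with the largest absolute rho. A few genes that this rule selects are not reported here. Other genes are named after their values were seen. Alternatives were another scaling, cutoff, pseudocount, filter or coefficient, centring within sets, partial correlations, and leaving out sets or pairs. Leaving out pairs 4 and 15 and the partial correlation given the total count were chosen after seeing the data.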

Additional observations from a re-analysis of the deposited data

How the results depend on the processing

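Of 914 values under alternatives, 881 stayed close to the reported one, 33 moved and 0 reversed a rho or ICC of 0.3 or more. Leaving out 1 set at a time, which changes few cells, gave 463 of the values that stayed and 5 that moved. Scaling by the spike-in gave 41 and 7. A changed pseudocount keeps the ranks of cells, so a Spearman rho over cells could not move under it. A count of pairs was taken to move when it left the Clopper-Pearson interval, a rho or ICC when it shifted by more than the sampling spread of a correlation of that n, and a count of genes when it changed over 1.5-fold. With a cutoff of 2 in place of 1.5, the pairs numbered 21 for Trp63, 9 for Krt5, 9 for Krt14 and 32 for Krt23. On spike-in normalized values, combinations of a list gene with 1 of the 5 genes at a rho of 0.3 or more numbered 32 for p63 targets (16 on CPM), 18 for hemidesmosome genes (9), 11 for wound keratins (7), 4 for suprabasal genes (2, and 4 without the filter on low counts) and 2 for the p53 family (0). Under that scaling 12 of the 25 genes most like the 5 genes were still among them, and shares over all genes were not computed for it. In counts without length scaling the median ratio of type I to type II keratins was 1.20. Leaving out each of the 12 sets in turn gave a median ICC of 0.337 to 0.470 and a median rho of 0.20 to 0.30 over cells, 0.04 to 0.17 between sisters and 0.21 to 0.28 between pair means. The causes of these moves were not tested. By the sampling of reads alone, a Krt15 count of 0, found in 28 cells, allows up to 3 counts. Loss of molecules before amplification is not covered by this bound.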

Other observations

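The pairs that stood out for the 5 genes also had unusual levels of other genes, named here after their values were seen. Both sisters of pair 46, in which Trp63 differed most, had the highest levels of Tgm1 of all 96 cells, at 1784 and 791 CPM against a median of 1.24 CPM, and Krt18 was at its lowest in these same cells, at 191 and 165 CPM against a median of 1191 CPM. Cnfn, which encodes a protein of the cornified envelope, had 2541 and 1005 CPM there, and 9433 CPM in cell 4-1, the highest of all, while cell 4-2 had 1.11 CPM. Mki67, a marker of cycling cells, was at 1.85 CPM in 46-1, the lowest of all cells, and at 558 CPM in its sister, against a median of 452 CPM.

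In pair 15, which held most Krt15, Adh7, an alcohol dehydrogenase of epithelia, reached 5083 and 6743 CPM, the highest levels of all cells, against a median of 248 CPM. Krt5 in cell 15-1 was also the highest of all, at 5982 CPM.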
